A study of Mus musculus with 8 samples.

Results

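Integrins, cadherins and protocadherins are the surface proteins with which a cell holds on to matrix and to its neighbours. They were followed here in cardiac mesenchymal stromal cells (cMSCs), the fibroblast-like cells of the heart that were sorted for Sca-1 and PDGFRα and against CD31 and CD45, which mark endothelial cells and leukocytes. The members were all non-control probes of the array whose gene name is that of an integrin alpha or beta subunit, of a cadherin with a number (Cdh) or of a protocadherin (Pcdh). This gave 190 probes of 97 genes, out of 56605 probes on the array. The desmosomal and atypical cadherins have other names and were counted as partners. RNA of 4 pools of aged C57BL/6 mice (20 months) and of 4 pools of young C57BL/6 mice (5 months) was hybridized to 1 array each. The mice were pooled by 3, except that the label of aged replicate 4 may stand for 2 mice. Male wild-type C57Bl/6JRj mice and a reporter line with eGFP in Cx3cr1, whose sex is not clearly stated, were both used in the study. The sources used here do not say which of them gave these pools. Pools are called replicates by their label numbers, 1 to 4 in the aged group and 2 to 5 in the young group.

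An integrin is a pair of 1 alpha and 1 beta subunit that links extracellular matrix or a ligand on another cell to the actin cytoskeleton, and it is switched on from inside the cell by talin and kindlin. Classical cadherins bind the same cadherin on the next cell and connect to actin through the catenins. Protocadherins are the largest branch of the cadherin superfamily. Most of them lie in the alpha, beta and gamma clusters, which stand in tandem on chromosome 18 in the mouse. In the alpha and gamma clusters each variable first exon is joined to constant exons that all genes of the cluster share, whereas each beta gene is a single exon of its own. Clustered protocadherins are best known from neurons, where a random choice of promoters gives each cell its own surface identity. Fibroblasts of the heart carry chiefly integrins for collagen, fibronectin and laminin, together with the mesenchymal cadherins Cdh2 and Cdh11.

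All levels below are log2 processed signals from which the log2 of the array's own 75th percentile was subtracted, so that 0 is a probe as bright as that percentile. Differences are aged minus young on this scale, with the standard error (SE) of a limma fit over all genes. A gene was tested when all 4 arrays of 1 group or of both had its probe well above background, and it was said to rise or fall at an adjusted p under 0.05. On each array 57.7% to 63.3% of spots were well above background and no spot was saturated, and pools of a group correlated at 0.988 to 0.995. The labels do not say more about the mice, so p-values measure the spread between these pools. In such bulk RNA, fewer cells with a transcript and less transcript per cell cannot be told apart.

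Of the 190 probes, 82 (43.2%) were well above background on all 8 arrays, 45 on some and 63 on none. Integrin beta probes passed on all 8 arrays in 10 of 17 cases, integrin alpha probes in 25 of 47 and beta-cluster protocadherin probes in 16 of 23. Cadherin probes did so in 11 of 53 cases, and 30 of them were well above background on no array. By gene, 56 of 97 had a probe well above background on all 8 arrays and 16 had none on any. The number of member probes well above background on an array was 100 to 109 in aged pools and 94 to 114 in young pools, so detection as a whole overlapped between the ages.

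**Figure D1:**
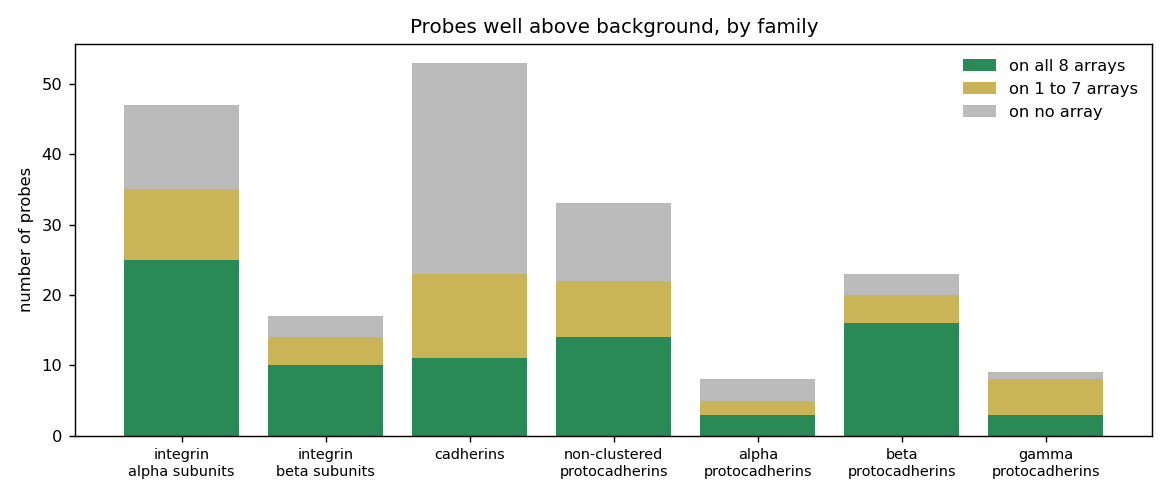
Number of probes in each of the 7 families (vertical axis) that were well above background on all 8 arrays, on some, or on none. The cadherins have the most probes on no array, 30 of 53.

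Of the 97 genes, 65 could be tested. In aged cMSCs 6 rose and 1 fell. Among cadherins, Cdh9 rose and Cdh4 fell. Among protocadherins outside the clusters Pcdh8 rose, in the alpha cluster Pcdhac2 and Pcdha8 rose, and in the beta cluster Pcdhb9 and Pcdhb7 rose. No integrin subunit passed the test in either direction. Over all 20226 genes tested, 2.46% rose and 0.791% fell, against 9.23% and 1.54% of the tested members. All 4 aged pools lay above all 4 young pools in 15 of the 65 members and below them in 3, while over all genes this held for 6.85% and 3.85%. Of the 65, 9 passed the filter through 1 group alone, 7 through the aged pools and 2 through the young pools. Among the 56 that were well above background on all 8 arrays, 3 rose and 1 fell when the fit was limited to such genes, in which 2.34% and 0.766% of all genes did.

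**Figure D2:**
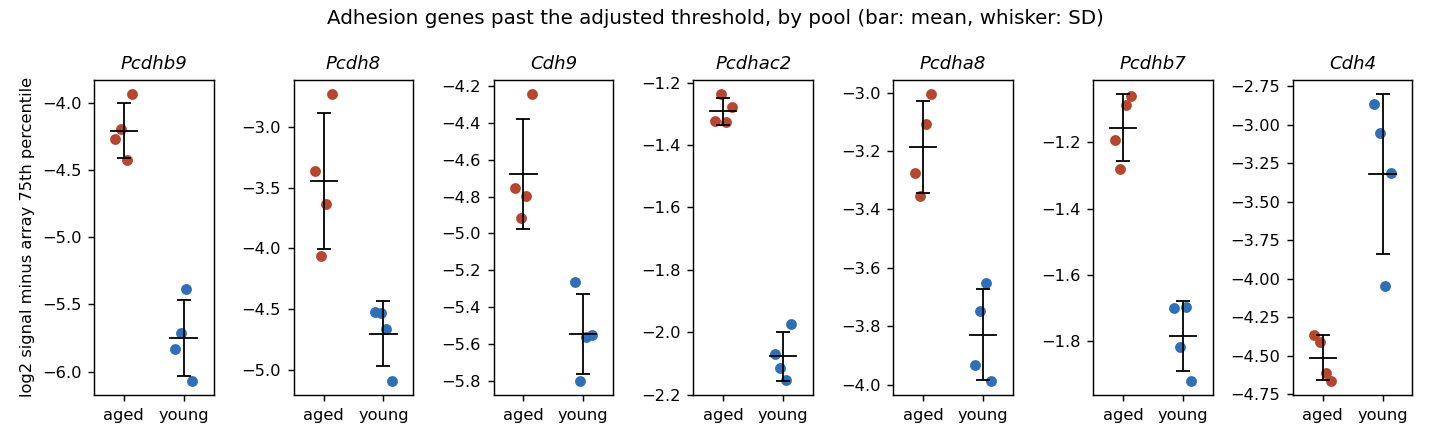
Level of the 7 members that passed the test (vertical axis, log2 signal minus the 75th percentile of the array) in each of 4 aged and 4 young pools, with the mean as a bar and the SD as a whisker. The axes differ between panels, and in none of them do the aged and young points overlap.

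The integrins showed no change that passed the test in any of the 20 subunits measured. Their differences ran between -0.48 and 0.70, with a median of -0.12 over 13 alpha subunits and -0.01 over 7 beta subunits, against 0.01 over all genes tested. Of the 20, 7 lay above 0 and 13 below it. Of the 20 subunits, 6 had an unadjusted p under 0.05, 3 in each direction, while over all genes tested 8.7% reached this as higher in aged pools and 5.42% as lower. By the methods' t-test 1 subunit above and 2 below 0 reached it, with none past the adjusted threshold. The same fit on the deposited log2 table, which also holds Itgae, put that gene past the threshold (-0.35 ± 0.07, adjusted p = 0.0351), although its probes reached that flag on no aged array and on 3 young ones.

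The general matrix receptors gave differences near 0. Itgb1, the beta subunit shared by the collagen, laminin and fibronectin receptors, had levels of 5.32, 5.36, 5.30 and 5.13 in aged pools, against 5.36, 5.18, 5.41 and 5.21 in young pools. Its difference was -0.01 ± 0.09 (SE), with a 95% interval of -0.22 to 0.19. Itgav, the alpha subunit of the vitronectin receptors that also release latent TGF-β, had levels of 4.19, 4.26, 4.24 and 3.82 in aged pools, against 4.13, 3.88, 4.23 and 4.10 in young pools. The groups overlapped for both genes, and the difference of Itgav was 0.04 ± 0.12 (95% interval -0.23 to 0.32). Both further Itgav probes that were well above background on all 8 arrays gave -0.24 and -0.04. The partners of Itgav showed like values, with -0.01 ± 0.10 for Itgb3 (interval -0.24 to 0.22), -0.16 ± 0.09 for Itgb5 and -0.07 ± 0.10 for Itgb8. Itga11 and Itga1, alpha subunits of collagen receptors, differed by -0.12 ± 0.11 and 0.23 ± 0.30.

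Itga8, the alpha subunit of the nephronectin receptor of mesenchymal cells, came nearest to a decrease. Its levels were 0.75, 0.84, 0.53 and 0.40 in aged pools, against 1.06, 0.93, 1.20 and 0.91 in young pools. All aged pools lay below all young pools, and the difference was -0.39 ± 0.12, with an unadjusted p of 0.00978 and an adjusted p of 0.142. A second Itga8 probe gave -0.12. Itga10, a collagen receptor subunit best known from cartilage, differed by -0.48 ± 0.17 (adjusted p = 0.22) and Itga3, a laminin receptor subunit, by -0.46 ± 0.18 (adjusted p = 0.278). For both of these genes the pools overlapped and another probe well above background on all 8 arrays had the opposite sign, 0.14 for Itga10 and 0.15 for Itga3.

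Itgb4, the laminin-binding subunit of hemidesmosomes, stood at the other end. It had levels of -1.37, -1.54, -1.14 and -1.19 in aged pools, against -1.56, -1.66, -1.85 and -2.20 in young pools. The groups did not overlap, and the difference of 0.51 ± 0.15 had an unadjusted limma p of 0.00972 and an adjusted p of 0.141. Itgb4 thus met the unadjusted thresholds of the study's methods (p of 0.01 or less, difference beyond 0.5), though not the adjusted one. In the same fit, 663 of 20226 genes met those thresholds as higher in aged pools. Itgb7, a subunit of lymphocyte homing receptors, differed by 0.56 ± 0.24 (adjusted p = 0.337) with overlapping pools.

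**Figure D3:**
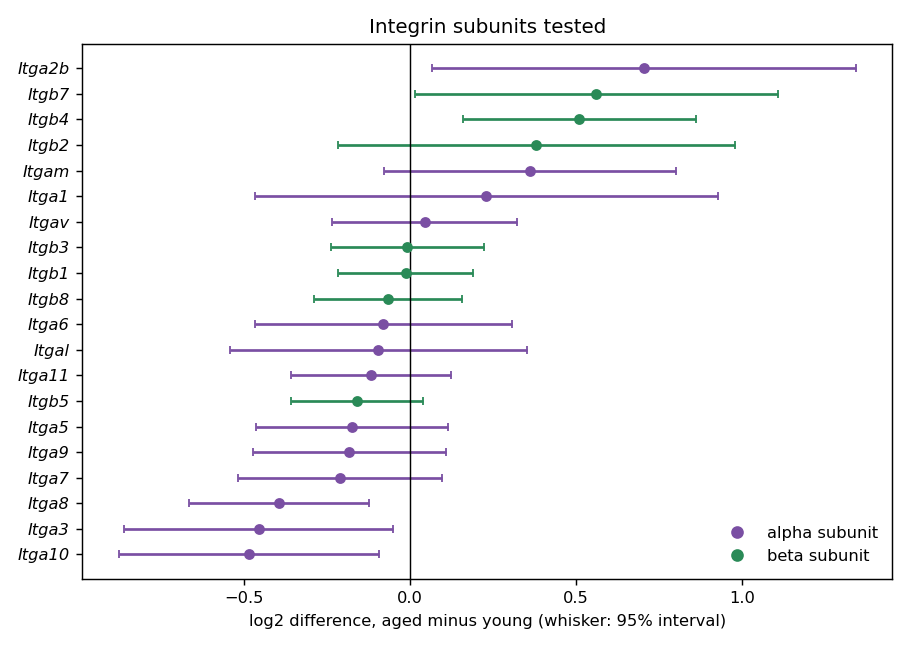
Difference between aged and young pools (horizontal axis, log2, point) with its 95% interval (whisker) for the 20 integrin subunits tested, 13 alpha and 7 beta. The intervals of Itga10, Itga3 and Itga8 lie below 0 and those of Itga2b, Itgb4 and Itgb7 above it, and none passed after adjustment over all genes.

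Integrins of blood cells gave a mixed picture in cells that had been sorted against CD45. Itgam, the alpha subunit of the myeloid receptor Mac-1, was read by a bright probe (mm9, chr7:135261755-135261814) with levels of 5.08, 4.50, 4.62 and 5.18 in aged pools, against 4.48, 4.87, 4.21 and 4.37 in young pools. The difference was 0.36 ± 0.19 (adjusted p = 0.483), and the pools overlapped. The other Itgam probe (chr7:135212140-135212199) was well above background on only 3 aged and 2 young arrays. Itgb2, the beta subunit of all leukocyte integrins of this class, differed by 0.38 ± 0.26 (adjusted p = 0.637), and its usual lymphocyte partner Itgal by -0.10 ± 0.20 (adjusted p = 0.914). Itgax and Itgad, alpha subunits of dendritic cells and macrophages, were well above background on no array. Itgae, the alpha subunit of resident T cells, was not tested on the scanner signals.

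The leukocyte markers were measured beside these subunits. Ptprc, the gene of CD45, was well above background on all 8 arrays, at 1.28 to 1.60 in aged pools and 1.28 to 1.50 in young pools. Of 7 leukocyte markers tested none passed the test, 6 differences lay above 0, and their median was 0.38. Their summed signal was 3.12 to 4.14 times the 75th percentile in aged pools and 2.79 to 3.47 times in young pools. By the levels above, Ptprc made up most of this sum. Of 10 macrophage markers 1 rose and 8 differences lay above 0, with a median of 0.18. Of 7 neutrophil markers 3 rose and 6 differences lay above 0, with a median of 0.70. Over all genes tested 2.46% rose. The summed signals of these 2 lists were 6.09 to 9.94 and 55.6 to 93.3 in aged pools, against 3.74 to 7.82 and 63.5 to 88.3 in young pools. The groups overlapped in all these sums, although most markers of each list lay above 0. Itga2b, the platelet subunit of the fibrinogen receptor, had levels of -4.60, -4.38, -4.45 and -4.68 in aged pools, against -5.28, -6.12, -4.79 and -4.75 in young pools, and was well above background on 4 aged and 2 young arrays. Its difference was 0.70 ± 0.28 (adjusted p = 0.291). Of 7 platelet and erythroid markers 1 rose and 5 differences lay above 0, with a median of 0.51. Their sum was 21.8 to 81.1 in aged pools and 15.0 to 50.9 in young pools. The part of these cells in the integrin values was not tested.

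Among the cadherins, 11 of 23 genes could be tested. Cdh1, the epithelial cadherin, was well above background on no array. So were Cdh7, Cdh10, Cdh17, Cdh18, Cdh20 and Cdh23. Cdh11, the mesenchymal cadherin of fibroblasts, had levels of 1.66, 1.74, 1.75 and 1.67 in aged pools, against 1.80, 1.82, 1.58 and 1.63 in young pools. The groups overlapped, and the difference was -0.00 ± 0.08 (95% interval -0.19 to 0.18). Cdh2, the cadherin shared by fibroblasts and cardiomyocytes, differed by 0.03 ± 0.15 (interval -0.33 to 0.38), and Cdh13, a cadherin tied to the membrane by a lipid anchor, by -0.11 ± 0.12.

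Cdh5, the cadherin of endothelial junctions, had levels of -1.04, -0.17, -0.41 and -0.41 in aged pools, against -0.19, -0.63, -0.16 and -0.48 in young pools. The groups overlapped, with a difference of -0.14 ± 0.19 (adjusted p = 0.865). None of 12 endothelial markers tested passed, and their summed signal was 76.0 to 84.2 in aged pools and 69.8 to 85.8 in young pools. Cdh19, a cadherin of Schwann cells, differed by 0.36 ± 0.20 (adjusted p = 0.515) with overlapping pools. Of 6 Schwann cell markers tested 1 rose and 1 fell, where 2.46% and 0.791% of all genes did. Of the 6 differences 4 lay above 0, with a median of 0.04. The sum of these markers was 4.67 to 5.35 in aged pools and 3.68 to 4.08 in young pools. The part of Schwann cells in the Cdh19 value was not tested.

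Cdh4 and Cdh9 were the cadherins that passed the test. Cdh4, the retinal cadherin, had levels of -4.37, -4.41, -4.61 and -4.66 in aged pools, against -2.87, -3.05, -4.05 and -3.31 in young pools. All aged pools lay below all young pools, and the mean fell by 1.19 ± 0.23 on the log2 scale, to 0.437 of the young level (adjusted p = 0.0326). Young replicate 4 was the lowest of the young pools, and the difference was -1.44 without it (adjusted p = 0.00344). Leaving out any other single pool kept the sign and gave adjusted p-values of 0.0659 to 0.0956. A second Cdh4 probe, well above background on 2 aged and 3 young arrays and therefore not tested, had a measured difference of -1.29, and the third was well above background on no array. Cdh9, a type II cadherin known from neurons, had levels of -4.75, -4.91, -4.80 and -4.24 in aged pools, against -5.27, -5.80, -5.56 and -5.55 in young pools. All aged pools lay above all young pools (0.87 ± 0.17, adjusted p = 0.0296). The gene was tested through the aged pools alone, as its probe was well above background on only 1 young array, so the size of the difference is not settled. It was 0.20 with the normexp background correction, which adds an offset to every spot, and without a filter on dim probes the adjusted p was 0.114. The call was lost without aged replicate 1 or 3 or young replicate 3, 4 or 5 (adjusted p = 0.0662 to 0.0833). Within the 2 rows of the slide, which held 2 pools of each age, the difference of Cdh9 was 1.18 and 0.56, and that of Cdh4 -1.33 and -1.05.

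Of the 12 protocadherins outside the clusters 11 were tested, with 7 differences above 0 and a median of 0.11. Pcdh8, a protocadherin that is switched on by activity in neurons and takes part in somite formation, was the gene that passed. It had levels of -3.36, -4.06, -3.63 and -2.73 in aged pools, against -4.52, -4.53, -4.66 and -5.09 in young pools. All aged pools lay above all young pools, 2.39-fold in the mean (1.26 ± 0.27, adjusted p = 0.0437), and the probe was well above background on 4 aged and 3 young arrays. The 2 slide rows gave 1.77 and 0.75. Only without aged replicate 2 did the gene still pass (adjusted p = 0.0233), and leaving out any other single pool gave adjusted p-values of 0.0502 to 0.11. A second Pcdh8 probe, well above background on 2 aged and 1 young arrays, had a measured difference of 0.45. With the slide row as a block the adjusted p was 0.0541.

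The probes that read the 3 genes outside the clusters are shown by the first 30 of their 60 bases, as the array file gives them, since all values of these genes rest on 1 tested probe each.
Cdh4 probe: ggcacagccctaacttgaatttcttaccac
Cdh9 probe: attatgattaccttagcgactggggacctc
Pcdh8 probe: aatgtgttggaattgctcattgggatttta
On mm9 they lie at chr2:179630828-179630887 (plus strand), chr15:16785915-16785974 (plus strand) and chr14:80166728-80166787 (minus strand).

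For Cdh9 and Pcdh8, the promoter sequence from RefSeq (GRCm38.p6) is shown as the 250 bases before the gene start, because these are the genes outside the clusters that rose. Capitals mark CCAAT and TATAAA, searched on both strands.
Pcdh8 promoter: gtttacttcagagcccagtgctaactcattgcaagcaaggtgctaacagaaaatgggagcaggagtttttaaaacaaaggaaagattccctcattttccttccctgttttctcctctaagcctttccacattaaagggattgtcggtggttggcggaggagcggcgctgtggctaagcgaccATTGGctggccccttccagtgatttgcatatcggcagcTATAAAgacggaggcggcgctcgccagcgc
Cdh9 promoter: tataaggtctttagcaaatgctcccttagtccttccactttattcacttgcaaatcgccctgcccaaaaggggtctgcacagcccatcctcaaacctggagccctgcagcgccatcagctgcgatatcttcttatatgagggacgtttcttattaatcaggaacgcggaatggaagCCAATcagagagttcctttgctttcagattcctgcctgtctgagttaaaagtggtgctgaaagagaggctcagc
They lie at chr14:79771313-79771562 (minus strand) and chr15:16728665-16728914 (plus strand). The Pcdh8 window held 1 CCAAT, read on the other strand, and 1 TATAAA, and the Cdh9 window held 1 CCAAT and no TATAAA. Over 32851 promoter windows of this length, 33.8% held CCAAT and 12.4% held TATAAA. Of the 97 members 40 had a promoter in that table, with 45 windows, of which 18 held CCAAT and 2 held TATAAA. A match is a run of letters and says nothing of what binds there.

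The remaining protocadherins outside the clusters gave values on both sides of 0. Pcdh18, a protocadherin of the delta-2 type, had levels of 2.92, 2.91, 2.61 and 2.68 in aged pools, against 3.27, 2.80, 3.09 and 3.25 in young pools. Young replicate 3 lay within the range of the aged pools, and the difference was -0.32 ± 0.13 (adjusted p = 0.296). Pcdh20 differed by -0.74 ± 0.32 (adjusted p = 0.345), with overlapping pools. Pcdh10 was well above background on 1 aged and 1 young array at most and was not tested.

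The clustered protocadherins held 4 of the 6 members that rose, and none of them fell. The 4 are 17.4% of the clustered genes tested, against 2.46% of all genes. The probes of Pcdhac2 and Pcdha8 list accessions of several genes each, so these calls cannot be given to single genes. Of the 4, only Pcdhb7 had a probe that lists a single gene and was well above background on all 8 arrays. The files give 36 of these genes, 23 of which were tested, and 20 of the 23 differences lay above 0, against 51.5% of all genes tested. Of the 23, 19 were well above background on all 8 arrays. Another 3, Pcdhb9, Pcdhgb1 and Pcdhga10, passed the filter through the aged pools alone and 1 through the young pools. The filter thus let these 3 in through the group where they were high, and the counts here include them. Aged pools lay wholly above young pools in 11 of the 23 and wholly below them in 1, against 6.85% and 3.85% of all genes tested. The 3 clusters differed in how their values ran.

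**Figure D4:**
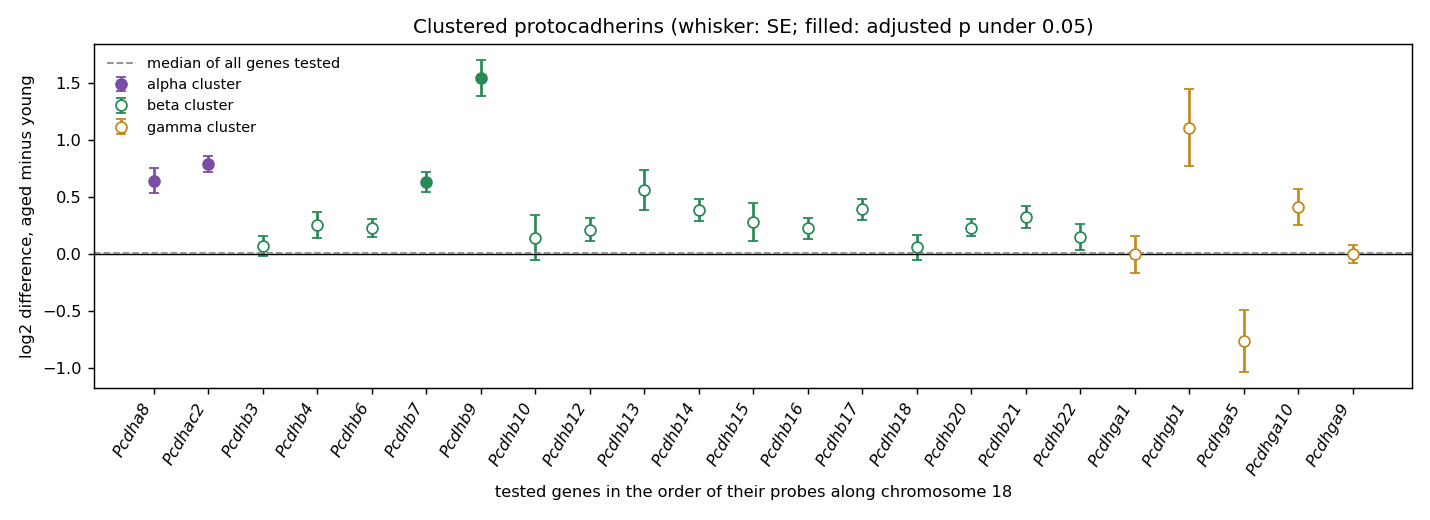
Difference between aged and young pools (vertical axis, log2, point) with its SE (whisker) for the 23 clustered protocadherins tested, in the order of their probes along the chromosome. All 16 points of the beta cluster lie above 0, between 0.06 and 1.54, whereas the 5 of the gamma cluster run from -0.76 to 1.10.

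In the beta cluster all 16 tested genes lay higher in aged pools, by 0.06 to 1.54 with a median of 0.24. Pcdhb9 and Pcdhb7 passed the test, and 9 of the 16 had an unadjusted p under 0.05, against the 8.7% of all genes that did so with a higher level in aged pools. In 8 of the 16 every aged pool lay above every young pool, against 6.85% of all genes tested. Averaged over the 16 genes, each gene being taken relative to its mean over the 8 pools, the aged pools stood at 0.17, 0.19, 0.20 and 0.15, against -0.12, -0.21, -0.11 and -0.27 in young pools. All 16 stayed above 0 within each slide row, with medians of 0.28 and 0.26, and after quantile, cyclic loess, median or normexp processing, with medians of 0.19 to 0.24. Without young replicate 5, 15 of 16 lay above 0. Without any filter on dim probes 21 of all 22 beta genes did, the exception being Pcdhb2. Of the 6 genes this adds, Pcdhb2, Pcdhb8 and Pcdhb19 were well above background on no array. Pcdhb1, Pcdhb5 and Pcdhb11 were so on 2 aged arrays and 1 young array at most. The signs of these dim probes carry little weight, as the median over all genes was 0.05 without a filter.

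Pcdhb9 had levels of -4.27, -4.20, -4.43 and -3.94 in aged pools, against -5.83, -5.71, -5.38 and -6.07 in young pools. The groups did not overlap (1.54 ± 0.16, adjusted p = 0.00206). The gene was tested through the aged pools alone, being well above background on 4 aged arrays and 1 young array, so the young level is near the limit of the measurement and the size of the difference is not settled. It passed without each pool in turn (adjusted p = 0.00262 to 0.00952). The normexp background correction gave a difference of 0.32 (adjusted p = 0.447). Pcdhb7 had levels of -1.19, -1.28, -1.09 and -1.06 in aged pools, against -1.70, -1.82, -1.70 and -1.92 in young pools. It was 1.54-fold higher in aged pools (0.63 ± 0.09, adjusted p = 0.00742) and well above background on all 8 arrays, and passed without each pool in turn (adjusted p = 0.0131 to 0.032).

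Pcdhb17 and Pcdhb14 were next in order. Pcdhb17 had levels of 1.10, 1.07, 1.10 and 1.14 in aged pools, against 0.85, 0.53, 0.85 and 0.64 in young pools, with a difference of 0.39 ± 0.09 (adjusted p = 0.0634). Pcdhb14 had levels of -0.23, -0.32, -0.39 and -0.36 in aged pools, against -0.65, -0.69, -0.56 and -0.94 in young pools, with a difference of 0.39 ± 0.10 (adjusted p = 0.0763). In both genes, and in Pcdhb21 (0.33 ± 0.10, adjusted p = 0.141) and Pcdhb13 (0.56 ± 0.18, adjusted p = 0.157), the groups did not overlap. Pcdhb3 and Pcdhb18 lay nearest to 0, at 0.07 ± 0.09 and 0.06 ± 0.11. Each beta probe that stood for its gene listed accessions of a single RefSeq gene.

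In the alpha cluster 2 of 7 genes were tested, and both rose. Pcdhac2 had levels of -1.33, -1.24, -1.33 and -1.28 in aged pools, against -2.07, -2.11, -2.15 and -1.97 in young pools. The spread within a group was small beside the gap, 1.72-fold in the mean (0.79 ± 0.07, adjusted p = 0.00117), and the gene passed without each pool in turn (adjusted p = 0.00291 to 0.00706). A second probe under the same name gave 0.54 and passed in the fit of single probes (adjusted p = 0.0211). Both probes (chr18:37344758-37344817 and chr18:37347235-37347294, mm9) list accessions of Pcdha4, Pcdha9, Pcdhac1 and Pcdhac2. In RefSeq 13 of the 14 alpha genes end within 100 bases of each other, so transcripts of several alpha genes may be read under this name.

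Pcdha8 had levels of -3.28, -3.35, -3.11 and -3.00 in aged pools, against -3.93, -3.75, -3.65 and -3.99 in young pools. It was 1.56-fold higher in aged pools (0.64 ± 0.11, adjusted p = 0.0198), with no overlap. Its probe (chr18:37154205-37154264) lists accessions of 4 RefSeq genes, Pcdha8 and Pcdha7 among them, and its value cannot be given to 1 gene. The call was lost without aged replicate 3 or young replicate 2 or 3 (adjusted p = 0.0513 to 0.0666). Probes of alpha genes that list a single gene could not be tested. Those of Pcdha11, Pcdha12 and Pcdhac1 were well above background on no array, and that of Pcdha9 on 3 aged and 3 young arrays, with a measured difference of -0.05.

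The gamma cluster showed no gene past the threshold among 5 tested. Pcdhga9 had levels of 5.87, 5.83, 5.77 and 5.96 in aged pools, against 5.86, 5.96, 5.83 and 5.78 in young pools. The groups overlapped, with a difference of -0.00 ± 0.08, and the second probe of that name gave -0.02. Both probes (chr18:38001378-38001437 and chr18:37999725-37999784) list accessions of Pcdhga1, Pcdhga5, Pcdhga6 and Pcdhga9, and 21 of the 22 gamma genes in RefSeq end within 100 bases of each other. Transcripts of several gamma genes may therefore be read under this name, and its value cannot be given to Pcdhga9 alone. The probes of single gamma genes had differences on both sides of 0. Pcdhgb1 had levels of -4.37, -4.60, -3.00 and -4.41 in aged pools, against -5.34, -5.07, -5.52 and -4.86 in young pools, a difference of 1.10 ± 0.34 (adjusted p = 0.146). Pcdhga5 had levels of -4.80, -4.86, -5.59 and -6.05 in aged pools, against -4.32, -4.64, -4.80 and -4.49 in young pools, a difference of -0.76 ± 0.27 (adjusted p = 0.227). In both genes the groups did not overlap, but Pcdhgb1 was well above background on only 2 young arrays and Pcdhga5 on only 2 aged arrays. Pcdhga10 differed by 0.41 ± 0.16 (adjusted p = 0.279) and Pcdhga1 by -0.00 ± 0.17.

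**Figure D5:**
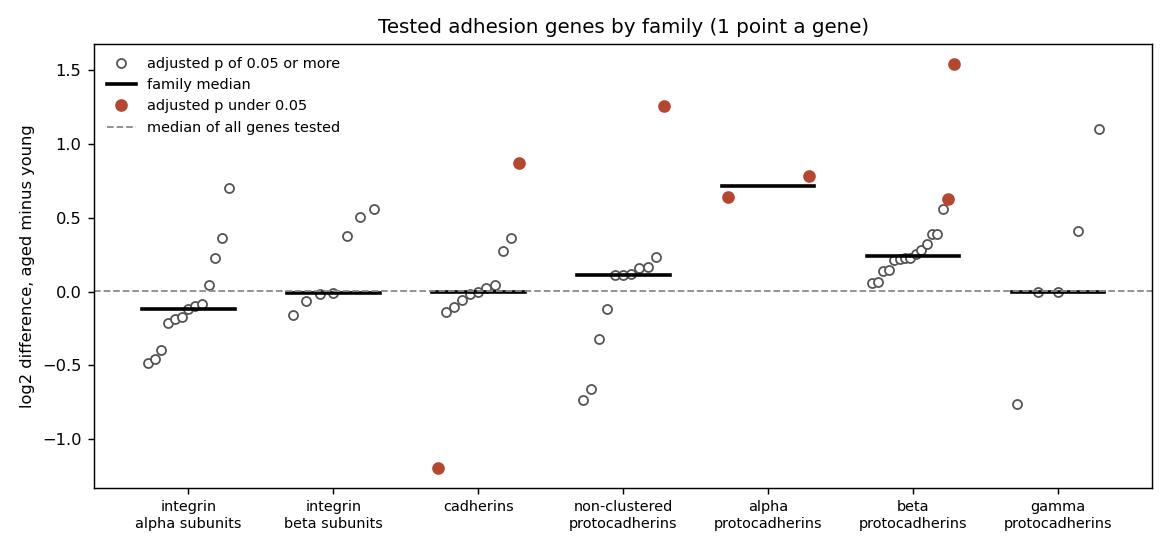
Difference between aged and young pools (vertical axis, log2) of each of the 65 tested members by family, filled where the adjusted p was under 0.05, with the family median as a bar. Medians run from -0.12 in integrin alpha subunits to 0.24 in the beta and 0.71 in the alpha protocadherins, the last over 2 genes only.

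Few of the genes that work with these receptors passed the test. Among 25 tested integrin adaptors and activators none passed in limma, and the median was 0.03. An unadjusted p under 0.05 was reached by 7, 4 of them higher and 3 lower in aged pools. Over all genes tested 8.7% reached this as higher and 5.42% as lower. With other settings up to 3 passed, 3 in the robust fit, 2 with array weights and 1 each with quantile, cyclic loess or normexp processing, in genes well above background on all 8 arrays, with the mean of probes and in the deposited log2 table. Nearest were Ptk2b, the focal adhesion kinase relative Pyk2, at 0.74 ± 0.16 (adjusted p = 0.0503) and Apbb1ip, which links Rap1 to talin, at 0.33 ± 0.08 (adjusted p = 0.0712). Of 33 tested integrin ligands 1 rose and 1 fell, where 2.46% and 0.791% of all genes did. An unadjusted p under 0.05 was reached by 15 ligands, 5 of them higher and 10 lower in aged pools, against 8.7% and 5.42% of all genes. The robust fit called 6 ligands and array weights 8, and neither replicate block called any. Postn, the matrix protein periostin, lay at 4.97 to 5.09 in aged pools and 3.58 to 4.18 in young pools (1.20 ± 0.13, adjusted p = 0.00216). Nid1, the basement membrane protein nidogen, lay at 6.50 to 6.58 in aged pools and 6.88 to 7.08 in young pools (-0.42 ± 0.07, adjusted p = 0.0184). The median of the ligands was -0.09, and 13 of the 33 differences lay above 0, against 51.5% of all genes. Their summed signal was 1523 to 1565 times the 75th percentile in aged pools and 1650.5 to 1813 times in young pools, without overlap. Such a sum rests mostly on the brightest genes and does not stand for the whole list.

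No gene passed among 14 catenins and cadherin partners, 4 desmosomal genes, 12 atypical cadherins and 8 regulators of protocadherin choice. In these lists limma gave an unadjusted p under 0.05 for 3, 0, 6 and 0 genes. Of these, 2 catenin partners were higher and 1 lower in aged pools, and 2 atypical cadherins were higher and 4 lower. Over all genes tested 8.7% reached this as higher and 5.42% as lower. A single catenin and 1 atypical cadherin passed when slide row was a block and likewise with array weights, and 1 atypical cadherin did so without aged replicate 2. Arvcf, a catenin of the p120 type, differed by 0.38 ± 0.10 (adjusted p = 0.0945) and Ctnnal1, a relative of alpha-catenin, by -0.33 ± 0.09 (adjusted p = 0.105). Dsp, the plaque protein desmoplakin, differed by -0.22 ± 0.16 and Ppl by -0.15 ± 0.13. Cdhr4 and Clstn2, members of the wider cadherin superfamily, differed by 0.41 ± 0.12 and -0.59 ± 0.18 (adjusted p = 0.113 and 0.142). Ctcf, whose protein binds the promoters of the clustered protocadherins and brings them to an enhancer, differed by -0.08 ± 0.09 and Wapl, which unloads cohesin, by -0.12 ± 0.11. The median over these regulators was -0.03.

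As markers of the labelled cell type, Pdgfra and Ly6a (the gene of Sca-1) were well above background on all 8 arrays. All 16 markers of sorted cMSCs and fibroblasts were tested, and their summed signal was 2332 to 2975 in aged pools and 2331 to 3252 in young pools. Of the 16, 1 rose and 1 fell, and 4 differences lay above 0, with a median of -0.10. Over all genes tested 2.46% rose, 0.791% fell and 51.5% lay above 0. The sums of 3 lists of other cells did not overlap between the ages, that of Schwann cells given above among them. Mesothelial and epicardial markers summed to 1.17 to 1.69 in aged pools and 0.315 to 0.509 in young pools. Of the 4 tested, 1 rose and only 2 differences lay above 0, with a median of 0.26. The higher sum therefore does not stand for the whole list. Cardiomyocyte markers summed to 8.93 to 13.6 in aged pools and 14.2 to 16.8 in young pools. Of the 11 tested, 2 fell and 1 difference lay above 0. The part of these cells in the values of Cdh4, Cdh9 and the protocadherins was not tested.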

How the data were processed

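Pools were grouped by their labels. Per the file headers, the authors scanned 1-colour arrays and used Agilent Feature Extraction 10.10.1.1 to obtain the deposited intensity values, with background and spatial trend subtracted but arrays not scaled to each other. A second table deposited by the authors gives log2 values for the same arrays after quantile normalization (median 8.12 per array) and served as an alternative. The sources used here name neither its background step nor its filter. Positions of probes are on mm9. Gene names and neighbours come from RefSeq (GRCm38.p6).

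Control spots and spots flagged as outliers were removed, each array's 75th percentile was subtracted from its log2 signals, and replicate spots were averaged. The kept probe with the highest mean stood for its gene. The 2 ages were compared in limma 3.58.1 under R 4.3.3, by lmFit and eBayes. The residual degrees of freedom were 6 and the prior ones 2.55. Benjamini-Hochberg adjustment ran over all 20226 genes tested. Only 8 arrays limit the precision. Data of this comparison were simulated in 5 runs with 20226 genes, 200 of them changed, each gene keeping its observed spread. The fit recovered 34.0%, 73.1% and 96.4% of genes changed by 0.5, 1 and 2 on the log2 scale. These shares hold for that setting, whereas in the real fit 497 genes rose and 160 fell. Exact two-sided permutation tests over the 8 pools cannot go below 0.0286, the value of each member whose groups do not overlap.

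The members, families and partner lists were chosen with earlier results of these data known. Named are every member that passed, in each family up to 4 further members with the smallest p under 0.05 (else 2), and 11 members that the study measured elsewhere or that mark other cells. Other members are named after their values were seen, for detection or as neighbours in a family. Of a partner list, genes that passed or the 2 with the smallest p are named. Sequences were read from the array files and RefSeq by script. Alternatives were other scalings (quantile, cyclic loess, median), normexp background correction, no or a stricter filter, means of probes or single probes, blocks for pool number, pool code and slide row, robust and weighted fits, the methods' t-test, the authors' table, their thresholds, and leaving out each pool.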

Additional observations from a re-analysis of the deposited data

Results flagged for a closer look

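In 2 of the 66 groups of 4 pools examined over the 33 named members, 1 pool stood far from the other 3. About 1 in 20 such groups is marked so by chance. Pcdhgb1 was at -3.00 in aged replicate 3, while the other aged pools lay between -4.60 and -4.37. Itgav was at 3.82 in aged replicate 4 while the other aged pools lay between 4.19 and 4.26.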

How the results depend on the processing

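Beside the 7 members that passed, 6 to 9 passed under the other scalings, the mean of probes, single probes, the slide row as a block, robust or weighted fits, and the thresholds of the study's methods. The number that passed was 2 with normexp (2 higher, 0 lower), 3 without a filter (3 and 0), 4 with genes well above background on all 8 arrays (3 and 1), 3 by the methods' t-test (3 and 0) and 4 in the deposited log2 table (2 and 2). Leaving out 1 pool gave 3 to 6 in all, 3 to 6 higher and 0 to 1 lower. With the pool number or the pool code as a replicate block, limma called 0 (0 higher, 0 lower), while 17 and 21 members had an unadjusted p under 0.05. Aged replicate 1 and young replicate 5 have no partner by number, and aged and young replicates 4 have none by code. In a block fit such pools add nothing to the age difference, and fewer residual degrees of freedom remain. Same-numbered pools correlated at 0.18, -0.17 and -0.27 and pools of the same code at 0.14, 0.18 and -0.17, and aged and young replicates 2 and 3 share both. As not every value was over 0.1, neither label was taken to pair the pools. Over all genes these blocks left 14 and 39 higher and 2 and 10 lower.

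In each alternative that measured them, the 7 genes kept their sign. Pcdhac2 and Pcdhb7 lost the threshold only under the replicate blocks, and Pcdhb9 there and with normexp (0.32). With pool number and pool code as the block, the differences were 0.83 and 0.76 for Pcdhac2 and 0.59 and 0.62 for Pcdhb7. Cdh4, Cdh9, Pcdh8 and Pcdha8 also lost it without a filter, by the t-test and with normexp, which gave -0.47, 0.20, 0.44 and 0.29. Cdh9, Pcdh8 and Pcdha8 lost it in the deposited log2 table (0.30, 0.62 and 0.34), Cdh9 and Pcdha8 in the robust fit, Pcdha8 with median scaling and Pcdh8 when slide row was a block. The cause was not tested. Pcdhb17 passed with cyclic loess and the robust fit (adjusted p = 0.0492 and 0.0324) and Pcdhb14 with array weights (adjusted p = 0.0413). By the software's looser detection flag, 119 member probes in place of 82 were measured on all 8 arrays. Cdh9, Pcdhb9, Pcdh8 and, among gamma genes, Pcdhgb1, Pcdhga5 and Pcdhga10 lie near background, where signal limits the precision, as do the aged levels of Cdh4 (-4.66 to -4.37).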
